A study of Mus musculus with 6 samples.

Results

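The Zfp-named genes are mouse genes whose symbol is Zfp followed by a number. Most encode zinc finger proteins. Members were the rows of the deposited count table with such a symbol and at least 300 counts summed over the 6 libraries. Zfp42 and pseudogene symbols were left out. The rule gave 173 members of 361 Zfp-named candidates, in a table of 38561 genes. Members were thus selected on their summed counts, so how abundant they were is a description and not a finding.

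RNA sequencing was done on undifferentiated feeder-free cultures of mouse embryonic stem cells (ESCs; 129X1/SvJ x 129S1/Sv strain), grown with leukemia inhibitory factor and serum replacement. The cultures were sorted by flow cytometry on PDGFRa, a growth factor receptor of primitive endoderm, and PECAM1, an adhesion molecule found on undifferentiated ESCs. The 3 fractions were PDGFRa-only (PECAM1minPDGFRaplus in the labels), double-positive (PECAM1plusPDGFRaplus) and PECAM1-only (PECAM1plusPDGFRamin). Each fraction had 2 libraries, each made from amplified RNA of 100000 sorted events; no group carried a transgene, mutation or added agent according to the labels. The series presents PDGFRa-positive cells as an in vitro counterpart of primitive endoderm precursors, and the comparisons ask how the fractions differ in expression. The labels do not say whether the 2 libraries of a fraction came from separate cultures, so each p measures the spread between these libraries alone.

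Many Zfp proteins hold C2H2 zinc fingers, which bind DNA in tandem arrays. A large group also carries a KRAB domain, which recruits the corepressor Trim28 and, through it, the histone H3K9 methyltransferase Setdb1 and HP1 proteins. Such KRAB zinc finger proteins are known in ESCs for silencing retroviral elements and for keeping DNA methylation at imprinted genes. A smaller family, Zfp36 and its relatives, has CCCH fingers that bind AU-rich RNA and promote its decay.

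In the longest coding sequence of each member, a C2H2 pattern was found in 165 members, a CCCH pattern in 3 (Zfp36, Zfp36l1 and Zfp36l2) and neither in 5 (Zfp185, Zfp259, Zfp330, Zfp365 and Zfp839). A KRAB profile matched 76 members and did not match 97. The median number of C2H2 fingers was 12 in members with a KRAB profile and 8 in members without, and the highest number was 41. Levels are given as CPM, read counts relative to library size, scaled by TMM, which matches libraries on the bulk of their genes, and not divided by gene length. Mean CPM over the 6 libraries ran from 7.92 to 372, with a median of 23.1. Per kilobase of exon, the median member with a KRAB profile had 2.97 CPM, against 6.25 CPM for the median member without. At the edge of the count rule, Zfp184, Zfp628 and Zfp938 lay just inside with 303 counts each, and Zfp182, Zfp513 and Zfp12 lay just outside with 292, 286 and 283 counts. All 173 members passed the filter on low counts, but 37 had under 100 counts in some fraction. Over 50% of the CPM lay in 1 fraction for 29 members. Some members, rising and falling ones alike, thus passed the count rule largely through the fraction where they were high.

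RefSeq promoter windows of GRCm38.p6, 250 bases before to 50 after a start, were listed for 136 members at 173 starts. The median window of a member held 16 CpG dinucleotides, against 7 over all 32851 windows. Letter strings of 4 kinds were searched on both strands. The ETS-type string CCGGAAG was in 21.4% of member windows and 8.86% of all windows, the Sp/Klf-type string GGGCGG in 50.3% and 35.7%, the GATA-type string GATAA in 19.7% and 25.4%, and the AP-1-type string TGACTCA in 4.62% and 5.20%. Among windows with at least the members' median CpG number, the ETS-type string was in 24.2% of 91 member windows and 19.1% of 10841 windows in all, and the AP-1-type string in 2.20% and 2.32%. In these windows the order of the other strings was turned round, with the Sp/Klf-type string in 72.5% and 77.7% and the GATA-type string in 13.2% and 9.93%. A match is a description of letters and not a binding site, and the strings do not overlap one another in the windows shown.

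The windows of 2 of the mRNA decay genes and of 2 members with large falls are printed below, since the results turn on these genes. Each runs 5′ to 3′ on the strand of its gene, and capitals mark the searched strings. Zfp36 (minus strand, chr7:28379179-28379478) held 1 ETS-type and 1 Sp/Klf-type string. Its relative Zfp36l1 (minus strand, chr12:80112964-80113263) held none. Zfp423 (minus strand, the first of 2 listed starts, chr8:87959546-87959845) held 2 Sp/Klf-type strings. Zfp57 (plus strand, the first of 3 listed starts, chr17:37003416-37003715) held 1 GATA-type string and only 4 CpG dinucleotides, against 21 in Zfp36 and in Zfp423.
Zfp36: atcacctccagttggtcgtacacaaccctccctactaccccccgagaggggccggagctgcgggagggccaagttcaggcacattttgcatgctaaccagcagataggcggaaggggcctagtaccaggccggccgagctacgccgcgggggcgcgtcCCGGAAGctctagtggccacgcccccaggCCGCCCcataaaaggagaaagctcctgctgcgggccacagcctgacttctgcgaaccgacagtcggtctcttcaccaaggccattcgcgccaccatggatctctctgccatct
Zfp36l1: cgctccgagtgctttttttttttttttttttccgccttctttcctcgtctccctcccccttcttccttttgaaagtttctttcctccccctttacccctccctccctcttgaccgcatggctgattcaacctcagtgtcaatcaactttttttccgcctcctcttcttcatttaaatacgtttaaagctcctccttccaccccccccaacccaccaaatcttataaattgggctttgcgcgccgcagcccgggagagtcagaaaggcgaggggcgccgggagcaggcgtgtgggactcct
Zfp423: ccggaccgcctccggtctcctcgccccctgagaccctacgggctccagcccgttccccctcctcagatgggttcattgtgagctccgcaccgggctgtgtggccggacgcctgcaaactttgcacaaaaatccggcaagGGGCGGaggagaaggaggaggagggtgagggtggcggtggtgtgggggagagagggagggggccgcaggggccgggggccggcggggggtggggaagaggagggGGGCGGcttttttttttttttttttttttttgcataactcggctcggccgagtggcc
Zfp57: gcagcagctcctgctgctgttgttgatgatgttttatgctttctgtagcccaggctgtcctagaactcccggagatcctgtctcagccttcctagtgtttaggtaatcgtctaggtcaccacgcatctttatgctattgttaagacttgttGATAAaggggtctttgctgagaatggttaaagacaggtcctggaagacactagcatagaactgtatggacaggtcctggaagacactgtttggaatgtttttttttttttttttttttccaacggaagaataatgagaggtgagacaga

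The libraries held 4809661 to 7273669 counts. The fractions were checked against marker lists. The 6 primitive endoderm markers (Gata4, Gata6, Sox17, Dab2, Cubn, Pdgfra) summed to 9337 to 10566 CPM in PDGFRa-only libraries, 7112 to 7672 CPM in double-positive and 19.1 to 22.3 CPM in PECAM1-only libraries. The 6 pluripotency markers (Nanog, Sox2, Esrrb, Prdm14, Tdgf1, Pecam1) summed to 21.6 to 33.5 CPM, 293 to 315 CPM and 1055 to 1204 CPM in the same order of fractions. The double-positive libraries thus held both sets. Pdgfra and Pecam1 encode the antigens used for sorting, so their part in these sums was largely set by the sort. Cubn and Dab2 were the largest parts of the first sum, with means of 5594 and 2772 CPM in PDGFRa-only libraries. The 6 fibroblast markers summed to at most 6.10 CPM in any library; of these, Col1a2 alone passed the filter on low counts, and it was higher in PDGFRa-only than in PECAM1-only cells (log2 fold change 4.23). The 5 endothelial and blood markers summed to 61.0 to 117 CPM in PDGFRa-only, 44.9 to 64.2 CPM in double-positive and 0.784 to 0.873 CPM in PECAM1-only libraries; Cdh5 was the only one of them to pass the filter on low counts, and Emcn and Ptprc were at 0 in every library. The primitive endoderm and pluripotency sums differ without overlap in every comparison below, and the endothelial sum does so in both comparisons with PECAM1-only libraries, while it overlaps between PDGFRa-only and double-positive libraries. In PDGFRa-only libraries the endothelial and blood sum was Cdh5 alone, at 117 and 61.0 CPM. Gata1 of that list went the other way, with 0 CPM in PDGFRa-only and 0.873 and 0.627 CPM in PECAM1-only libraries. The part of these marker differences in the members' results was not tested. In these bulk samples, fewer cells of a type and less RNA per cell cannot be told apart.

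Summed over all members, the Zfp-named genes took 6472 and 6534 CPM in PDGFRa-only libraries, 7166 and 7243 CPM in double-positive libraries, and 8809.8 and 8366 CPM in PECAM1-only libraries. The sum was lowest in both PDGFRa-only libraries and highest in both PECAM1-only libraries, with no overlap between fractions. Members with a KRAB profile summed to 1748 and 1683 CPM, 1939 and 1925 CPM, and 2520.0 and 2284 CPM in the same order of fractions. For 138 of 173 members the double-positive mean lay between the means of the single-positive fractions. The same count was not made over all tested genes, so it is a description and not a trait of the members.

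Between the single-positive fractions, 37 members rose and 56 fell in PDGFRa-only cells relative to PECAM1-only cells, and 80 did not pass the test (edgeR quasi-likelihood, Benjamini-Hochberg adjusted p under 0.05 over 13909 genes). The members called were 53.8%, against 59.0% of all tested genes. Members that rose made up 21.4%, against 30.1% of all tested genes, and members that fell 32.4%, against 28.8%. Of all 173 members, 14 rose and 33 fell at least 2-fold, where 20.6% and 20.0% of all tested genes did so. The median log2 fold change was -0.21 for the members and 0.01 for all tested genes. With upper-quartile scaling the split was 23 rises to 79 falls, and with library size alone 21 to 82; these scalings shift every gene by nearly the same amount, and moved the median of all genes to -0.20 and -0.28 and the members' median to -0.41 and -0.49. Over all tested genes the splits with these scalings were 3484 to 4916 and 3227 to 5318, against 4193 to 4012 with TMM. Among the 188 candidates under the count rule, 137 could be tested, and 18 rose and 35 fell.

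Members with and without a KRAB profile held both rises and falls. Of the 76 with the profile, 13 rose and 24 fell, with a median log2 fold change of -0.27. Of the 97 without, 24 rose and 32 fell, with a median of -0.08. Falls were 31.6% of the first set and 32 of 97 in the second, near the 28.8% of all tested genes, and rises were 17.1% and 24.7%, against 30.1%. The difference between these medians was not tested. In the ranked plot both kinds stand at each end.

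**Figure D1:**
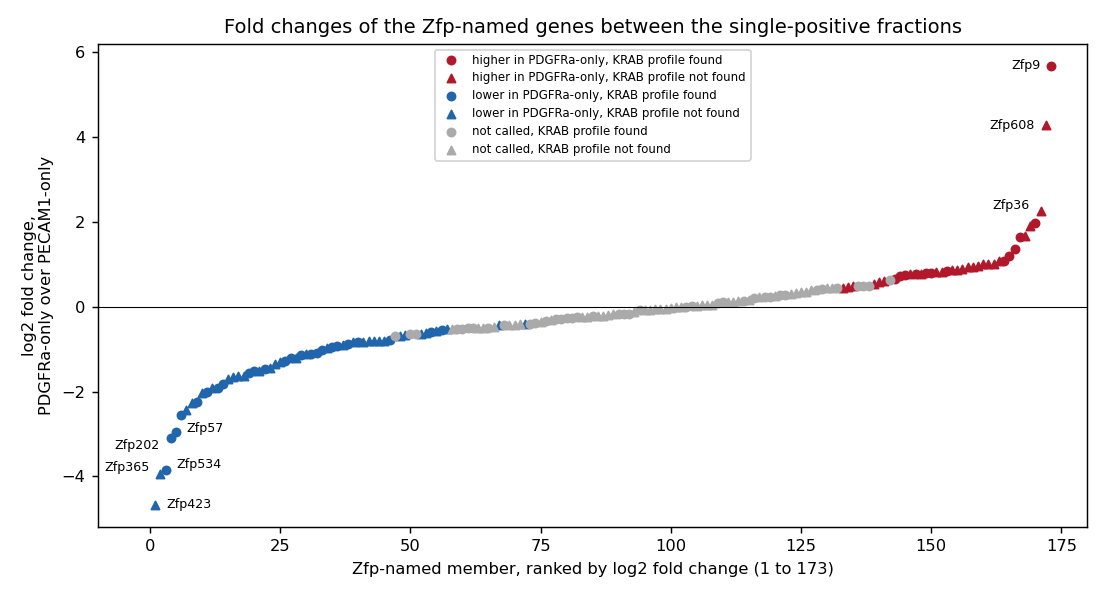
Fitted log2 fold change of PDGFRa-only over PECAM1-only cells for each of the 173 members, ranked; red and blue points passed the test (higher or lower in PDGFRa-only), grey points did not, and circles are members with a KRAB profile. The ends are Zfp9 at 5.68 and Zfp423 at -4.67, and 37 points are red against 56 blue.

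The largest rise was in Zfp9, which encodes a KRAB protein with 12 fingers (ENSMUSG00000072623, GRCm38 chromosome 6, 118461950 to 118479320). Zfp9 had 21.3 and 26.9 CPM in PDGFRa-only libraries, 9.13 and 23.2 CPM in double-positive libraries and 0.291 and 0.627 CPM in PECAM1-only libraries. Both PECAM1-only libraries were far below the other 4, and the double-positive pair was spread widely. The PECAM1-only values stand for only a few reads, so the size of the folds over that fraction is uncertain. Zfp9 passed the count rule almost wholly through the PDGFRa-positive fractions. Its log2 fold change was 5.68 (SE 0.52, adjusted p = 1.92e-08, edgeR) in PDGFRa-only over PECAM1-only cells and 5.09 (SE 0.54, adjusted p = 3.39e-07) in double-positive over PECAM1-only cells. The PDGFRa-only and double-positive libraries overlapped, with a log2 fold change of 0.59 that did not pass the test (adjusted p = 0.214).

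Zfp608, known in mouse thymocytes as a repressor of Rag gene expression, came next (chromosome 18, 54888048 to 54992555). Its level was 20.0 and 21.6 CPM in PDGFRa-only, 14.5 and 20.5 CPM in double-positive and 1.16 and 0.941 CPM in PECAM1-only libraries. The PECAM1-only pair again stood alone at the bottom, at few reads per library, which limits how exactly the fold is known. This gene too passed the count rule largely through the PDGFRa-positive fractions. The log2 fold change was 4.28 (SE 0.35, adjusted p = 1.19e-09, edgeR) for PDGFRa-only over PECAM1-only cells. Its paralog Zfp609, a partner of the cohesin loader Nipbl in neural progenitors, had 209 and 175 CPM in PDGFRa-only and 173 and 181 CPM in PECAM1-only libraries, which overlapped (log2 fold change 0.11, adjusted p = 0.552).

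The other members among the 8 largest rises were Zfp948 (log2 fold change 1.97, SE 0.23), Zfp449 (1.66, SE 0.30), Zfp667 (1.65, SE 0.25) and Zfp790 (1.36, SE 0.30), with the decay genes Zfp36 and Zfp36l2 described below. Their adjusted p ran from 2.20e-07 for Zfp948 to 5.22e-04 for Zfp790 (edgeR). Zfp948, with a KRAB profile and 15 fingers, had 52.8 and 38.5 CPM in PDGFRa-only, 24.5 and 29.6 CPM in double-positive and 12.5 and 10.7 CPM in PECAM1-only libraries. All 3 fractions were apart in this gene.

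The largest fall was in Zfp423, a protein with 28 fingers known as a partner of Smad and Ebf factors in BMP signalling and neural and fat cell development (ENSMUSG00000045333, chromosome 8, 87661810 to 87959595). It had 3.37 and 3.78 CPM in PDGFRa-only libraries, 30.8 and 32.9 CPM in double-positive libraries and 108 and 75.6 CPM in PECAM1-only libraries. The fractions did not overlap, and the double-positive mean of 31.8 ± 1.43 CPM lay between 3.57 ± 0.289 CPM in PDGFRa-only and 91.9 ± 23.1 CPM in PECAM1-only cells (SD, n = 2 each). The log2 fold change was -4.67 (SE 0.26, adjusted p = 2.85e-12, edgeR) for PDGFRa-only over PECAM1-only and -3.14 (SE 0.27, adjusted p = 3.58e-08) for PDGFRa-only over double-positive cells.

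Zfp365, in which no finger was found, had 1.35 and 3.17 CPM in PDGFRa-only, 15.6 and 17.7 CPM in double-positive and 36.1 and 38.7 CPM in PECAM1-only libraries. The log2 fold change in PDGFRa-only over PECAM1-only cells was -3.95 (SE 0.30, adjusted p = 4.74e-10, edgeR). Zfp202, whose human counterpart is known to repress genes of lipid metabolism, had 5.16 and 7.40 CPM, 19.2 and 15.2 CPM, and 61.3 and 48.3 CPM in the same order of fractions (-3.09, SE 0.25). In both genes the PDGFRa-only libraries were lowest and the PECAM1-only libraries highest. Zfp534, a KRAB gene, also fell (-3.85, SE 0.37), with 1.35 and 1.06 CPM in PDGFRa-only and 19.4 and 15.2 CPM in PECAM1-only libraries; its value is uncertain because 68.4% of its 50-base exon windows occur in other genes, mainly Zfp987.

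**Figure D2:**
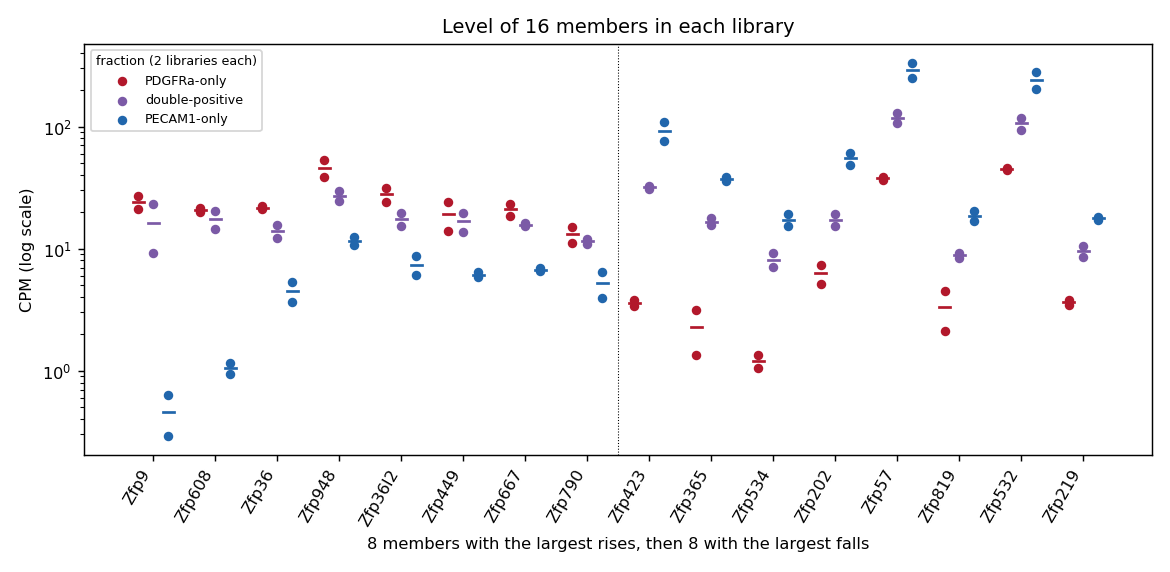
CPM (log scale) in each library for the 8 members with the largest rises and the 8 with the largest falls in PDGFRa-only over PECAM1-only cells; points are libraries and short lines are means of 2. Zfp9 and Zfp608 lie near or below 1 CPM in PECAM1-only libraries, and Zfp423, Zfp365, Zfp534 and Zfp202 are lowest in PDGFRa-only and intermediate in double-positive libraries.

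The role lists below were chosen with earlier results of these data known, so their counts are descriptions. All 3 mRNA decay genes of the CCCH type rose in PDGFRa-only over PECAM1-only cells, where 30.1% of all tested genes rose. They rose in double-positive over PECAM1-only cells as well, where 21.8% of all tested genes did so. Zfp36 (tristetraprolin, which binds AU-rich elements and recruits deadenylases) had 22.2 and 21.0 CPM in PDGFRa-only, 12.3 and 15.5 CPM in double-positive and 3.64 and 5.33 CPM in PECAM1-only libraries. Its log2 fold change was 2.27 (SE 0.28, adjusted p = 4.70e-07, edgeR) in PDGFRa-only over PECAM1-only cells. Zfp36l2 had 31.4 and 24.3 CPM, 15.3 and 19.6 CPM, and 6.11 and 8.62 CPM in the same order of fractions (log2 fold change 1.91, SE 0.26). Zfp36l1 had 129 and 90.3 CPM, 89.1 and 102 CPM, and 58.4 and 59.6 CPM (0.89, SE 0.18).

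In all 3 decay genes both PECAM1-only libraries were below the other 4 libraries. They also rose in double-positive over PECAM1-only cells, by log2 fold changes of 1.63 (Zfp36), 1.24 (Zfp36l2) and 0.69 (Zfp36l1), the last with adjusted p = 0.0548 without double-positive replicate 2. None of them passed the test in PDGFRa-only over double-positive cells, where their log2 fold changes were 0.64, 0.67 and 0.20 in the same order of genes (adjusted p = 0.0758, 0.0568 and 0.501, edgeR).

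Of the 2 keepers of imprinted DNA methylation, Zfp57 fell and Zfp445 did not pass the test. Zfp57 binds methylated imprinting control regions and holds their methylation after fertilisation (ENSMUSG00000036036, chromosome 17, 37001163 to 37010635). It had 38.8 and 36.6 CPM in PDGFRa-only libraries, 129.8 and 107 CPM in double-positive libraries and 334 and 249 CPM in PECAM1-only libraries. The fractions did not overlap. The log2 fold change was -2.95 (SE 0.19, adjusted p = 2.48e-11, edgeR) in PDGFRa-only over PECAM1-only cells, -1.30 (SE 0.17) in double-positive over PECAM1-only cells and -1.65 (SE 0.18) in PDGFRa-only over double-positive cells. Zfp445, which acts beside Zfp57 at imprints, had 36.1 and 52.0 CPM in PDGFRa-only and 51.1 and 47.8 CPM in PECAM1-only libraries, which overlapped (-0.16, SE 0.20, adjusted p = 0.511).

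Of the 4 retroviral repressors listed, Zfp708 and Zfp932 were under the count rule with 105 and 112 counts. Zfp819, known to repress retrotransposons in mouse pluripotent cells, fell in PDGFRa-only cells to 4.49 and 2.11 CPM, against 16.7 and 20.5 CPM in PECAM1-only libraries (log2 fold change -2.56, SE 0.33, adjusted p = 8.34e-07, edgeR). Its double-positive libraries had 9.13 and 8.45 CPM, between the other fractions. Zfp809, which silences murine leukemia virus in ESCs, had 37.5 and 55.4 CPM in PDGFRa-only and 57.2 and 47.0 CPM in PECAM1-only libraries. These overlapped (-0.16, SE 0.20, adjusted p = 0.524).

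Among 8 regulators of pluripotency and the early embryo, 5 fell in PDGFRa-only over PECAM1-only cells and 3 did not pass the test. Falls were thus 62.5%, against 28.8% of all tested genes. The median log2 fold change was -1.28, against 0.01 for all tested genes. Zfp281, an ESC factor that works with Nanog, had 37.5 and 48.2 CPM in PDGFRa-only, 79.8 and 76.2 CPM in double-positive and 143 and 123 CPM in PECAM1-only libraries (-1.62, SE 0.18, adjusted p = 1.04e-07, edgeR). Zfp462, which helps hold heterochromatin through G9a and GLP in ESCs, had 159 and 163 CPM, 257 and 251 CPM, and 433 and 386 CPM in the same order of fractions (-1.35, SE 0.15). Both genes were in order PDGFRa-only, double-positive, PECAM1-only from low to high, without overlap.

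Zfp568, a KRAB protein that represses a placental transcript of Igf2, had 163 and 192 CPM in PDGFRa-only, 291 and 264 CPM in double-positive and 454 and 367 CPM in PECAM1-only libraries (-1.21, SE 0.16). Zfp296, a partner in reprogramming to pluripotency, had 5.61 and 2.42 CPM, 8.50 and 4.07 CPM, and 17.0 and 14.3 CPM in the same order (-2.03, SE 0.37). Zfp219 had 3.82 and 3.47 CPM, 10.5 and 8.61 CPM, and 18.3 and 17.1 CPM (-2.28, SE 0.29). Of these 3, Zfp296 was the one whose PDGFRa-only and double-positive libraries overlapped. With 329 summed counts, Zfp296 passed the count rule largely through the PECAM1-only fraction, where it was high. Its fall therefore counts towards the list only as a description. Not passing the test were Zfp143 (-0.49, adjusted p = 0.0505), Zfp322a (-0.05), which activates pluripotency genes in mouse ESCs, and Zfp706 (0.11), known from screens for exit from self-renewal.

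In double-positive over PECAM1-only cells Zfp219, Zfp281, Zfp296, Zfp462 and Zfp568 fell, with log2 fold changes from -1.32 (Zfp296) to -0.56 (Zfp568). These falls were 62.5% of the list, against 16.4% of all tested genes. Without double-positive replicate 2 the adjusted p was 0.0903 for Zfp296, 0.117 for Zfp219 and 0.124 for Zfp568, and without PECAM1-only replicate 1 it was 0.0531, 0.0734 and 0.174 (edgeR). In PDGFRa-only over double-positive cells 4 of the 8 fell: Zfp219 (-1.40), Zfp281 (-0.86), Zfp462 (-0.66) and Zfp568 (-0.64). Of all tested genes 11.7% fell there. The call of Zfp568 was lost without double-positive replicate 1, where its log2 fold change was -0.57.

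The 12 partners of chromatin complexes moved both ways: 4 rose and 6 fell in PDGFRa-only over PECAM1-only cells, with a median log2 fold change of -0.23. The rises were 33.3% of the list, close to the 30.1% of all tested genes, and the falls were 6 of 12, against 28.8%. Zfp532, Zfp592 and Zfp687 are related proteins, of which the human ZNF592 and ZNF687 bind the chromatin reader ZMYND8. Zfp532 had 44.0 and 45.9 CPM in PDGFRa-only, 118 and 94.4 CPM in double-positive and 281 and 204 CPM in PECAM1-only libraries (-2.43, SE 0.19, adjusted p = 5.21e-10, edgeR). Its relative Zfp592 went the other way, with 92.7 and 91.1 CPM, 62.2 and 68.5 CPM, and 45.4 and 46.3 CPM in the same order of fractions (1.00, SE 0.17, adjusted p = 3.09e-05). Zfp687 had 52.1 and 44.9 CPM in PDGFRa-only and 34.4 and 38.7 CPM in PECAM1-only libraries and did not pass the test (0.40, adjusted p = 0.0682).

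The other partners that fell were Zfp827 (-1.71, SE 0.20), known for bringing the NuRD complex to telomeres, Zfp217 (-1.44, SE 0.19), a CtBP and CoREST partner, Zfp518a (-1.29, SE 0.18), Zfp518b (-1.20, SE 0.19) and the SUMO ligase Zfp451 (-0.68, SE 0.19; adjusted p = 0.0543 without PDGFRa-only replicate 1). The smaller rises were in Zfp335 (0.61, SE 0.20), part of a histone H3K4 methyltransferase complex, Zfp410 (0.59, SE 0.23), an activator of Chd4, and Zfp644 (0.48, SE 0.17), a G9a and GLP partner. These 3 rises did not hold with library size alone (adjusted p = 0.171, 0.282 and 0.317, edgeR) or without PECAM1-only replicate 2 (0.0861, 0.319 and 0.153), and Zfp335 was at 0.0529 without PDGFRa-only replicate 1. Zfp148 did not pass the test (0.22, adjusted p = 0.290).

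Of 10 listed developmental regulators, 6 were members; Zfp503, Zfp703, Zfp521 and Zfp467 were under the count rule with 19, 176, 49 and 25 counts. Zfp608 rose and Zfp423 fell, as given above. Zfp516, a mouse activator of brown fat genes, had 42.2 and 47.7 CPM in PDGFRa-only, 73.5 and 87.5 CPM in double-positive and 126 and 152 CPM in PECAM1-only libraries (-1.63, SE 0.18, adjusted p = 9.68e-08, edgeR). Zfp292 was called lower in PDGFRa-only over PECAM1-only cells (-0.40, adjusted p = 0.0474), but the call ended without PDGFRa-only replicate 1 (0.355), double-positive replicate 1 (0.0761) or 2 (0.0741), and PECAM1-only replicate 1 (0.237) or 2 (0.0712). Zfp704 did not pass the test (-0.08, SE 0.18).

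The 9 members among factors of RNA, ribosome and spindle held 1 rise and 2 falls in PDGFRa-only over PECAM1-only cells. These were 11.1% and 22.2% of the 9, against 30.1% and 28.8% of all tested genes. Their median log2 fold change was -0.05. Zfp207 (BuGZ, a kinetochore protein that binds Bub3) had the highest mean CPM of all members, with 313 and 285 CPM in PDGFRa-only, 370.3 and 345 CPM in double-positive and 459.9 and 456 CPM in PECAM1-only libraries (-0.61, SE 0.15, adjusted p = 0.00156, edgeR). The RNA-binding Zfp106 had 242 and 297 CPM, 296 and 332 CPM, and 384 and 412 CPM in the same order of fractions (-0.56, SE 0.16). Zfp593 was under the count rule with 39 counts, and Zfp638 is listed under another symbol and was no member. Zfp622, whose yeast relative acts in maturation of the large ribosomal subunit, rose to 60.6 and 78.4 CPM in PDGFRa-only, against 41.3 and 38.4 CPM in PECAM1-only libraries (0.81, SE 0.19). The other 6 ran from -0.40 (Zfp385a) to 0.36 (Zfp131) and did not pass the test. They included Zfp598, the ligase that marks collided ribosomes (-0.07), the double-stranded RNA binder Zfp346 (-0.05) and Zfp326 (0.04).

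**Figure D3:**
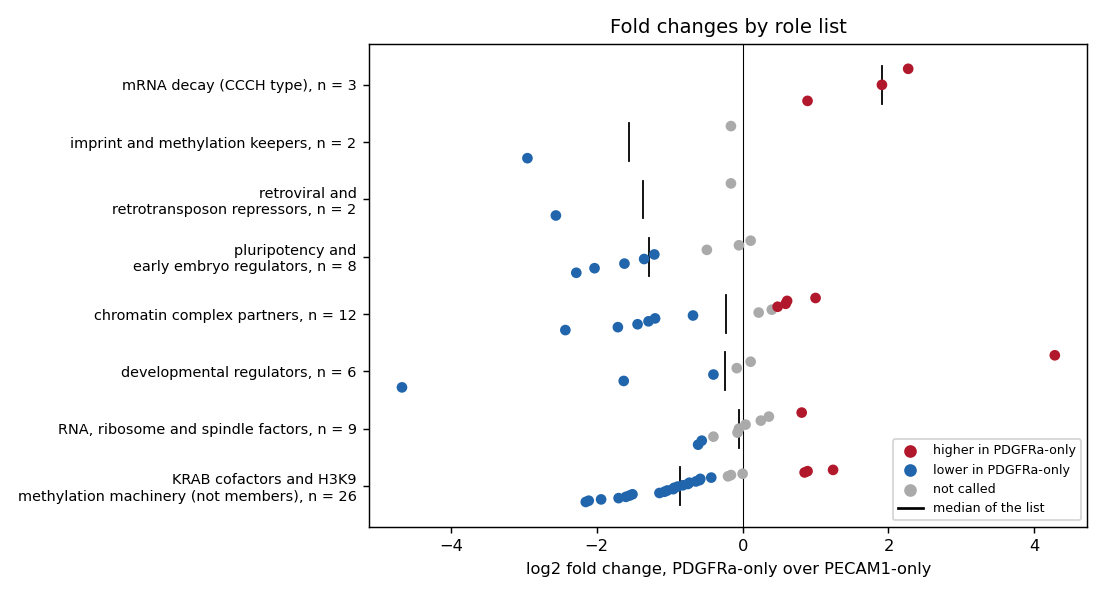
Log2 fold change of PDGFRa-only over PECAM1-only cells for the members of 7 role lists and for the KRAB cofactor list, whose genes are not members; each point is a gene, coloured by its call, and the black line is the median of the list. The 3 decay genes lie right of 0, and 20 of 26 cofactor genes are blue, left of 0.

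Genes listed as KRAB cofactors or as H3K9 methylation machinery, called cofactor genes below, were also measured. Not all of them are partners that KRAB proteins need. Of 26 KRAB cofactor and H3K9 methylation genes, 3 rose and 20 fell in PDGFRa-only over PECAM1-only cells, which is 76.9% falling, against 28.8% of all tested genes; the median log2 fold change was -0.86 against 0.01. Trim28, the corepressor itself, had 390.4 and 297 CPM in PDGFRa-only, 578 and 480.2 CPM in double-positive and 1238 and 993 CPM in PECAM1-only libraries (-1.70, SE 0.18, adjusted p = 6.71e-08, edgeR). The smallest p among the falls were those of the remodeller Hells (-2.15, SE 0.17), the HUSH subunit Mphosph8 (-2.11, SE 0.19) and Morc3 (-1.94, SE 0.19). Setdb1, the methyltransferase that Trim28 recruits, had 100.1 and 109.5 CPM in PDGFRa-only and 199.9 and 148 CPM in PECAM1-only libraries (-0.73, SE 0.17). The 3 rises were in the methyltransferases Suv39h1 (1.24, SE 0.18) and Ehmt2 (0.89, SE 0.18) and the HUSH subunit Pphln1 (0.85, SE 0.16).

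In double-positive over PECAM1-only cells 2 cofactor genes rose and 14 fell (median -0.48), which is 7.69% and 53.8%, against 21.8% and 16.4% of all tested genes, and 8 fell without double-positive replicate 2 or without PECAM1-only replicate 1. Hells (-1.26), Trim28 (-1.08) and Morc3 (-0.99) had the smallest p there. In PDGFRa-only over double-positive cells 8 fell and 1, Ehmt2 (0.52, adjusted p = 0.0480, edgeR), rose (median -0.34). The falls were 30.8% and the rise 3.85%, against 11.7% and 5.94% of all tested genes. Without double-positive replicate 1 there were 5 falls. The rise of Ehmt2 was called with PDGFRa-only replicate 2 left out, and not with any of the other libraries left out.

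Between the double-positive and PECAM1-only fractions, 19 members rose and 38 fell in double-positive cells, 32.9% called against 38.2% of all tested genes. Rises were 11.0% of members, against 21.8% of all tested genes, and falls 22.0%, against 16.4%. Of all 173 members, 8 rose and 11 fell at least 2-fold, where 14.3% and 8.88% of all tested genes did so. The median log2 fold change was -0.12 for members and -0.01 for all tested genes. The number of falls was 23, 22, 20 and 23 without double-positive replicate 1, double-positive replicate 2, PECAM1-only replicate 1 and PECAM1-only replicate 2, and the number of rises was 12 without PECAM1-only replicate 2. With upper-quartile scaling the split was 13 rises to 55 falls, and with library size alone 12 to 59. The median of all genes then moved to -0.17 and -0.22. Over all tested genes the splits were 2528 to 3306 and 2421 to 3658, against 3031 to 2288 with TMM.

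The largest rises in double-positive over PECAM1-only cells were in Zfp9 (5.09), Zfp608 (4.02), Zfp36 (1.63) and Zfp449 (1.45). The largest falls were in Zfp202 (-1.67, SE 0.22), Zfp423 (-1.53, SE 0.20), Zfp296, Zfp57 and Zfp532 (-1.20, SE 0.18). Zfp367 also fell, to 12.0 and 18.2 CPM in double-positive libraries, against 31.7 and 33.6 CPM in PECAM1-only libraries (-1.12, SE 0.23, adjusted p = 6.26e-04, edgeR). Zfp184 fell by a like amount (-1.12, SE 0.30, adjusted p = 0.00460), a call that ended without double-positive replicate 1 (0.0738) or PECAM1-only replicate 2 (0.0884).

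Between the 2 PDGFRa-positive fractions, 3 members rose and 21 fell in PDGFRa-only over double-positive cells, 13.9% called against 17.6% of all tested genes. Rises were 1.73% of members, against 5.94% of all tested genes, and falls 12.1%, against 11.7%. Of all 173 members, none rose and 11 fell at least 2-fold, where 0.798% and 8.71% of all tested genes did so. The falls were led by Zfp423 (-3.14), Zfp365 (-2.78, SE 0.32), Zfp534 (-2.76), Zfp57 (-1.65), Zfp819 (-1.48), Zfp202 (-1.42), Zfp219 (-1.40) and Zfp141 (-1.28, SE 0.20). Zfp819 was at adjusted p = 0.0694 without PDGFRa-only replicate 2 (edgeR).

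The 3 rises in PDGFRa-only over double-positive cells were under 2-fold, and their calls were lost when single libraries were left out. Zfp869 had 24.5 and 14.4 CPM in PDGFRa-only and 10.5 and 10.5 CPM in double-positive libraries (0.86, SE 0.27, adjusted p = 0.0335, edgeR). Zfp948 (0.75, adjusted p = 0.0179) and Zfp592 (0.49, adjusted p = 0.0455) were the other two. Without PDGFRa-only replicate 1 or double-positive replicate 1 the count of rises was 0, with adjusted p of 0.319, 0.115 and 0.0627 for Zfp869, Zfp948 and Zfp592 in the first case and 0.142, 0.190 and 0.320 in the second. The log2 fold changes were then 0.45, 0.51 and 0.48 in the first case and 0.86, 0.61 and 0.42 in the second, so the fold of Zfp592 moved little while that of Zfp869 was lower without PDGFRa-only replicate 1. Without PDGFRa-only replicate 2 there were 9 rises. Zfp869 and Zfp592 also lost their calls without double-positive replicate 2 (0.130 and 0.143), and Zfp592 without PECAM1-only replicate 1 (0.0697) or 2 (0.0691).

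The double-positive fraction was placed on a scale from 0% (the PECAM1-only level) to 100% (the PDGFRa-only level) on the log2 scale. For the 14 members at least 2-fold higher in PDGFRa-only cells, the median place was 73.1%, with a range from 28.5% (Zfp869) to 94.1% (Zfp608). For the 33 members at least 2-fold lower, it was 51.1%, with a range from 28.4% (Zfp534) to 74.5% (Zfp184). Over all tested genes called and changed as much, the medians were 76.6% for 2872 genes and 42.3% for 2778 genes. The scale uses the same libraries that chose the genes, so it is a description without a test.

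**Figure D4:**
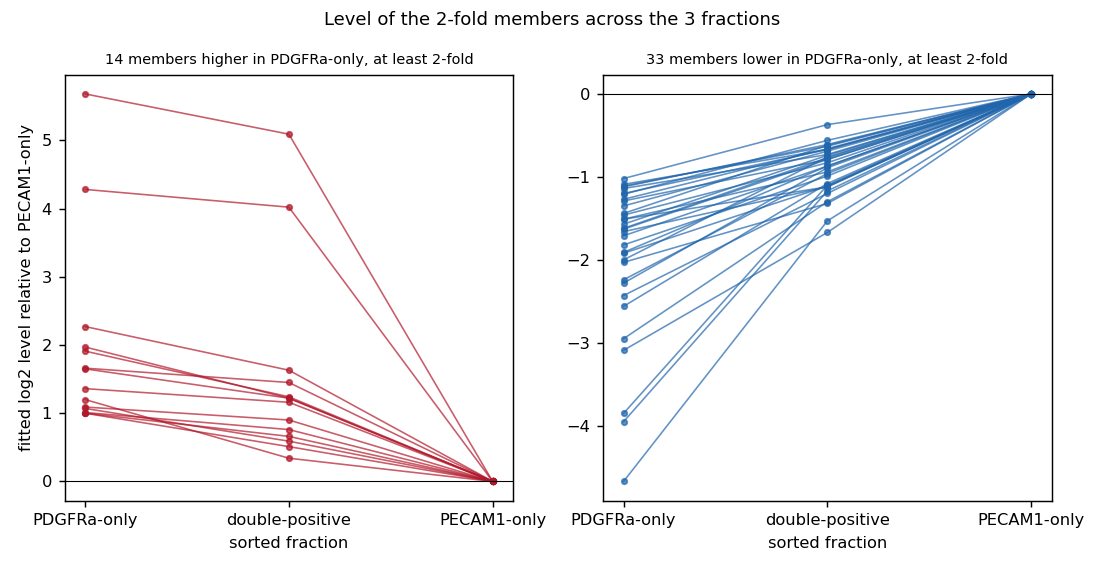
Fitted log2 level relative to PECAM1-only cells in the PDGFRa-only, double-positive and PECAM1-only fractions; each line is a member at least 2-fold higher (left, 14) or lower (right, 33) in PDGFRa-only over PECAM1-only cells. In the left panel double-positive points lie closer to PDGFRa-only (median 73.1% of the way), and in the right panel near the middle (51.1%).

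Many Zfp genes lie in tandem clusters. Members were spread over 20 chromosomes, with 38 on chromosome 7 and 18 on chromosome 17. With neighbouring members no more than 1000000 bases apart, 58 members fell into 11 clusters of at least 4. Some clusters held both rises and falls, and others held calls in 1 direction. The chromosome 7 cluster of Zfp606, Zfp329, Zfp110 and Zfp446 held no calls. The cluster members named here and not above were chosen after their values were seen. In the cluster of 7 KRAB genes on chromosome 17 (21450374 to 22867134), Zfp948 rose (1.97) beside falls in Zfp760 (-1.02), Zfp229 (-1.46) and Zfp945 (-1.57). In PDGFRa-only over PECAM1-only cells rises were 14.3% and falls 42.9% of the 7, against 30.1% and 28.8% of all tested genes.

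The cluster of 9 members on chromosome 7 (29768552 to 30169750) held 1 rise, Zfp790 (1.36), and 2 falls, Zfp74 (-1.09) and Zfp568 (-1.21). The other 6 did not pass the test. Rises were thus 11.1% and falls 22.2% of the 9, against 30.1% and 28.8% of all tested genes. A further cluster of 6 KRAB genes on chromosome 7 (41633203 to 43618285) held 3 falls of over 2-fold, in Zfp819 (-2.56), Zfp141 (-2.24) and Zfp936 (-2.00); the other 3 did not pass the test. Zfp141 and Zfp936 share 14.4% and 15.6% of their exon windows with other genes, so their values carry that uncertainty. On chromosome 13 (67405709 to 67687071) Zfp459 fell (-1.91) and its neighbour Zfp87 rose (0.79, adjusted p = 0.0172, edgeR). The Zfp87 call ended with upper-quartile scaling and library size alone (adjusted p = 0.0722 and 0.119, edgeR) and with DESeq2 (0.0687, Wald test). It also ended without PDGFRa-only replicate 1 or PECAM1-only replicate 2, where the log2 fold changes were 0.68 and 0.60.

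**Figure D5:**
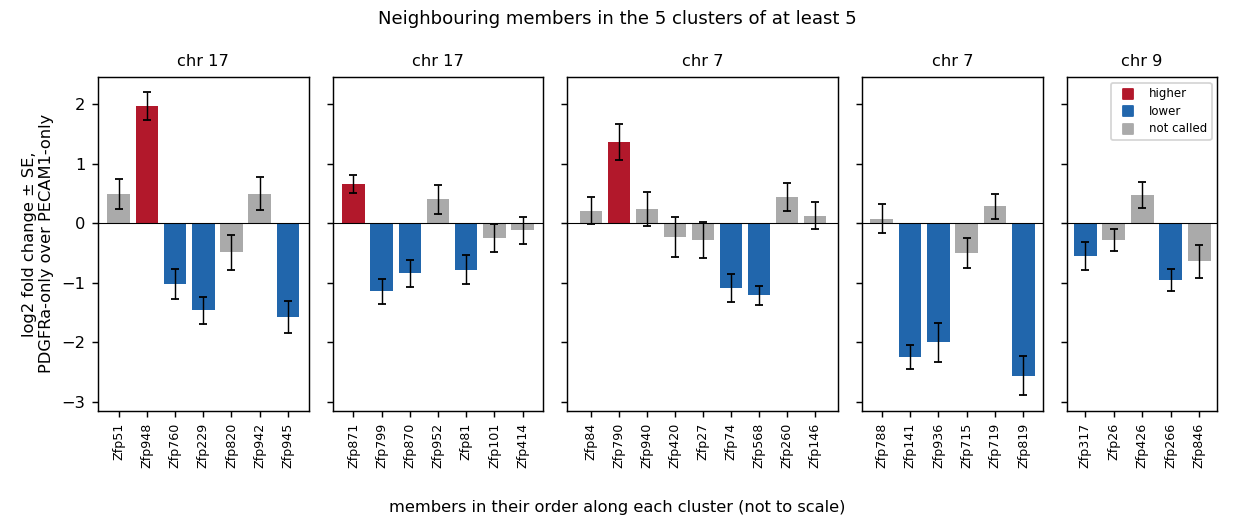
Log2 fold change (± SE) of PDGFRa-only over PECAM1-only cells for neighbouring members in the 5 clusters of at least 5, in their order along the chromosome; red and blue bars passed the test. In the first panel Zfp948 stands at 1.97 between neighbours that fell or did not pass the test, and in the fourth panel the 3 called members are all blue.

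Exons of 52 members overlap a gene on the other strand and those of 10 a gene on the same strand. Whether counting used the strand is not given in the sources used here, so reads of such pairs cannot be told apart. Among the members described above this touches Zfp36, Zfp36l1, Zfp36l2, Zfp106, Zfp143, Zfp184, Zfp219, Zfp296, Zfp322a, Zfp335, Zfp346, Zfp367, Zfp410, Zfp459, Zfp532, Zfp608, Zfp687, Zfp704, Zfp706 and Zfp74 on the other strand, and Zfp518a, Zfp644, Zfp827 and Zfp87 on the same strand.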

How the data were processed

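Total RNA of 6 sorted mouse ESC libraries was sequenced. The submitters' processing notes name the build GRCm38, HTSeq 0.5.4p3, TopHat2 2.0.8b, Bowtie2 2.1.0 and cutadapt 1.2.1, without saying what each was used for; strand handling is not given in the sources used here. The deposited table holds raw read counts per Ensembl gene, not normalized by the authors, and every test used them. A deposited RPKM table, made in a way that is not stated, was not used.

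From the counts, edgeR 4.0.16 (R 4.3.3) kept genes by filterByExpr with a minimum count of 10 (13909 genes), scaled libraries by TMM and fitted a robust quasi-likelihood model with 1 mean per fraction to all 6 libraries (3 residual degrees of freedom, biological coefficient of variation 13.5%). Tests were two-sided, with Benjamini-Hochberg adjustment over all 13909 genes and a threshold of 0.05. The code of the fit was also run on simulated counts with few changed genes. That setting differs from these data, where 59.0% of genes were called between the single-positive fractions. The run therefore does not test the scaling. Library depth was 4809661 to 7273669 counts, and low counts limit the precision of the rarer members.

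Positions came from GENCODE M21 on GRCm38, which held all 173 members (171 under the same name; Zfp259 and Zfp191 under others) and 36723 identifiers in all. Fingers and the KRAB profile (pyhmmer 0.12.3, built from 135 seed windows of 42 residues, E of at most 0.001) were searched in the translated longest GENCODE coding sequence, where RefSeq proteins had been planned. Promoter windows came from RefSeq (GRCm38.p6).

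The members and lists were chosen with earlier results of these data known. Named genes were the role lists, up to 8 largest rises and falls per comparison without overlap between the fractions, the 5 with the highest mean CPM, those beside the count rule, and the cofactor list with its smallest p. Not every named gene is described. Alternatives were other scalings, other filters, a higher count rule, a replicate block, fits of 2 fractions, each library left out, and DESeq2 1.42.0.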

Additional observations from a re-analysis of the deposited data

How the results depend on the processing

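The alternatives were run for 132 calls of named genes and cluster members. Of these, 86 kept their call throughout, 46 lost it under some setting and 0 reversed direction. No called member had overlapping libraries, so leaving a library out could hardly reverse a direction. The lack of reversals is therefore a description and no support for the calls. Upper-quartile scaling gave 23 members higher in PDGFRa-only over PECAM1-only cells, and library size alone gave 21. All tested genes also had fewer rises with these scalings (3484 and 3227, against 4193 with TMM). With library size alone, 12 rose and 59 fell in double-positive over PECAM1-only cells, and 1 rose in PDGFRa-only over double-positive cells, as with only the 2 fractions fitted. Requiring at least 1000 summed counts left 72 members, of which 13 rose and 32 fell in PDGFRa-only over PECAM1-only, 7 rose and 20 fell in double-positive over PECAM1-only, and 1 rose in PDGFRa-only over double-positive cells; fewer members enter these counts. The cofactor genes higher in PDGFRa-only over double-positive cells numbered 0 with upper-quartile scaling, library size alone, no filter, a minimum count of 30, 2 fractions fitted or DESeq2, and 2 with RLE scaling or the replicate block; for the scalings and filters the cause was not tested.

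With each library left out in turn, members higher and lower numbered 25 to 37 and 50 to 56 in PDGFRa-only over PECAM1-only, 12 to 25 and 20 to 46 in double-positive over PECAM1-only, and 0 to 9 and 16 to 24 in PDGFRa-only over double-positive cells. Cofactor genes higher and lower numbered 3 to 3 and 16 to 20, 2 to 2 and 8 to 18, and 0 to 1 and 5 to 9 in the same order of comparisons. The lone library left in a fraction was then assumed to vary like the others. Same-numbered libraries deviated together with r = -0.0248, 0.156 and 0.111 across genes, which does not show that the numbers pair the libraries, and the labels do not say; with the replicate block the members' counts were 38 and 60, 22 and 39, and 4 and 25. DESeq2 gave 26 and 54, 13 and 36, and 2 and 17. The depth limits each value through its counts, and 37 members had under 100 counts in some fraction.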
